A study of Homo sapiens with 6 samples.

Results

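The genes described here are 35 aminoacyl-tRNA synthetase genes and 3 genes for the scaffold proteins of the multi-synthetase complex, 38 of the 17918 genes in the deposited table. They were chosen by gene symbol, as a family, with no threshold on a measured value. In 17 of them the enzyme works in the cytosol, in 2 (GARS1 and KARS1) the same gene serves the cytosol and the mitochondrion, and in 16, whose symbols end in 2, the enzyme works in the mitochondrion. All 38 were in the table and all 38 passed the filter on low counts.

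RNA was sequenced from KMS11, an established human multiple myeloma line, which is a cancer of plasma cells. A hairpin RNA against CRIP1 had been introduced for 3 libraries (genotype labelled CRIP1 knockdown) and a scramble hairpin for the other 3 (genotype labelled WT). All 6 were grown in medium with serum, with no treatment. The labels do not say that replicates were separate cultures, or how many hairpins or clones were used, so the spread behind the p-values may be technical. The question that the design puts is how lowering CRIP1, a small LIM domain protein, changed RNA levels.

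An aminoacyl-tRNA synthetase joins 1 amino acid to its tRNA, and the ribosome can use only such charged tRNA. Cytosolic and mitochondrial translation are served by separate enzymes for most amino acids, all of them encoded in the nucleus. In the cytosol, several enzymes are held in a complex by the scaffold proteins AIMP1, AIMP2 and EEF1E1. When uncharged tRNA accumulates or the endoplasmic reticulum is stressed, kinases phosphorylate eIF2alpha, translation of the transcription factor ATF4 rises, and ATF4 is known to activate genes for amino acid synthesis and transport and for many cytosolic synthetases. Plasma cells secrete large amounts of antibody, which places a high demand on charged tRNA.

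CRIP1 was at 2791, 3327 and 3174 TPM (a level scaled for gene length and library size) in scramble replicates 1 to 3 and at 127, 129 and 134 TPM in knockdown replicates 1 to 3. It fell by 4.71 on the log2 scale (SE 0.06, 26.2-fold lower, adjusted p = 6.15e-22, edgeR's quasi-likelihood test with Benjamini-Hochberg adjustment), and 3 against 3 libraries cannot give an exact two-sided permutation p below 0.1. Libraries held 16971454 to 18005318 estimated counts. The groups stood far apart: correlations of log values ran from 0.995 to 0.996 within groups and from 0.921 to 0.923 between them, and of 12612 genes tested 77.6% passed adjusted p under 0.05. Markers of other cell types differed too. Of 11 erythroid markers, 9 were at 0 in every scramble library, and the list summed to 3.86 to 5.66 TPM in scramble and 669 to 673 TPM in knockdown libraries, with 9 of 10 tested genes higher. Of 9 plasma cell markers tested, 3 rose (CD38, IRF4 and TNFRSF17) and 6 fell. The list summed to 8420 to 8860 TPM in scramble and 3797 to 4054 TPM in knockdown libraries, most of it JCHAIN, the antibody joining chain, in scramble (6443 ± 223 and 1789 ± 158 TPM). All 5 epithelial markers tested rose, and that list summed to 10.3 to 13.4 and 84.0 to 90.1 TPM. These shifts accompany every result below, and their part in them was not tested. An effect of the hairpin and a difference in the cells that the 2 groups of libraries came from cannot be told apart here. In bulk RNA, fewer cells of a type and less RNA per cell cannot be told apart.

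The synthetase genes split by compartment. Of the 17 cytosolic genes, 12 rose, 4 fell and 1 did not pass the test, with a median log2 fold change of 0.21. Of the 16 mitochondrial genes, 3 rose, 9 fell and 4 did not pass, with a median of -0.21. Both dual genes fell (GARS1 not on the TPM scale), and 2 of the 3 scaffold genes rose. Over all genes tested, 39.4% rose and 38.1% fell, and the median was 0.01. Across the 38 together, 17 rose and 15 fell, near those shares. Past 1.5-fold, 18.2% of all genes were higher and 17.1% lower. Of the 38, the genes higher by that measure were WARS1, SARS1, AARS1, NARS1 and AIMP2, and the genes lower were SARS2, EARS2, CARS2, LARS2 and QARS1. That is 13.2% of the 38 in each direction, below the shares of all genes.

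The split of directions depends on scaling. Counts scaled by TMM, as fitted in edgeR, are relative to the bulk of genes, whereas on the deposited TPM scale (limma on log2(TPM + 1)) the median of all genes itself lies at 0.12, and after removal of a GC trend at -0.08. On the TPM scale 13 cytosolic genes rose and 4 fell (median 0.34), and 5 mitochondrial genes rose and 6 fell (median -0.09). With the GC trend removed, 11 cytosolic genes rose and 5 fell (median 0.15), and 3 mitochondrial genes rose and 11 fell (median -0.24). The cytosolic median stayed above the median of all genes and the mitochondrial median below it in these 3 scalings. A shift common to all genes cannot change that order, so the TPM scale is little check of it. Because the median of all genes lies above 0 on the TPM scale, folds read from TPM below are somewhat higher than the fitted folds.

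**Figure D1:**
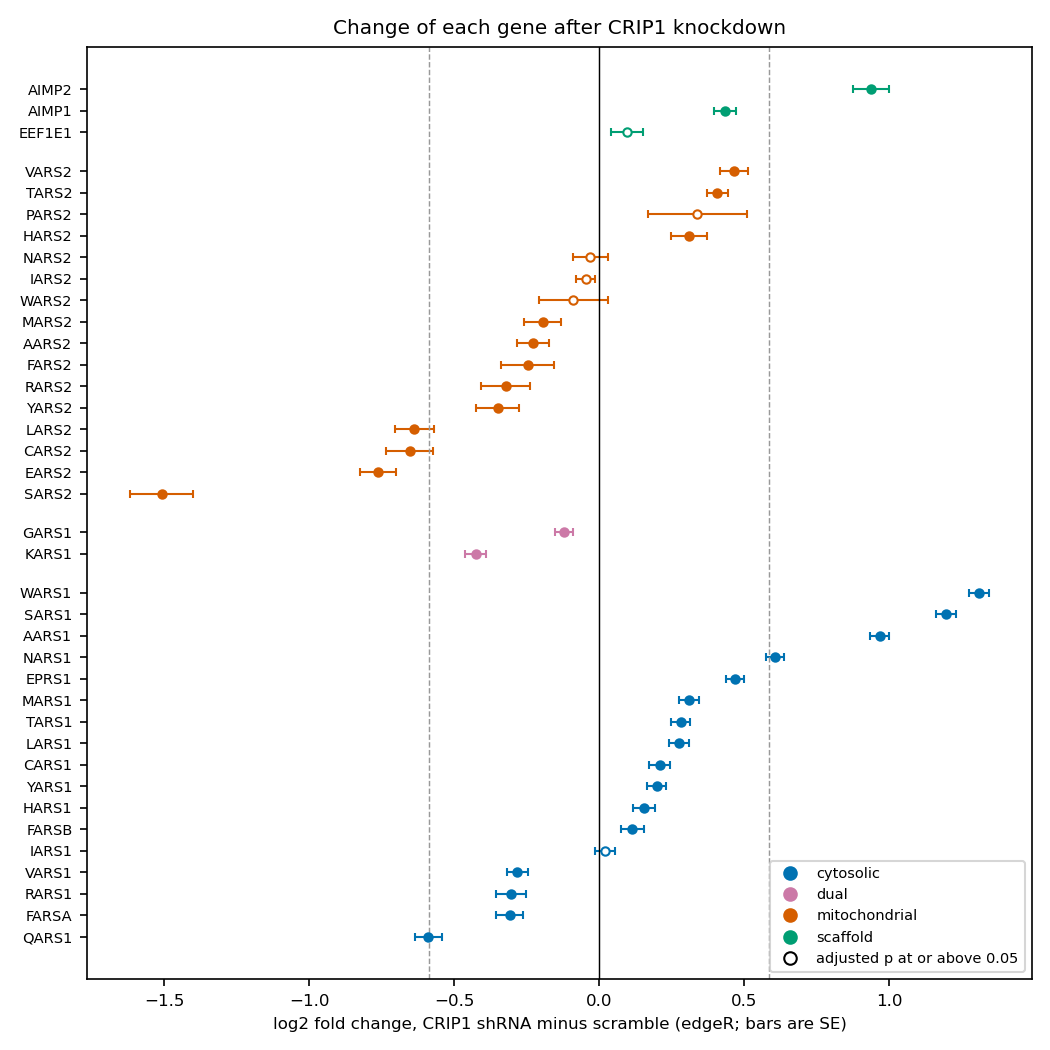
Fitted log2 fold change of each gene, CRIP1 shRNA minus scramble (horizontal axis; bars are SE, dashed lines mark 1.5-fold, open points have adjusted p at or above 0.05), coloured by compartment. Cytosolic genes run from -0.59 (QARS1) to 1.31 (WARS1) and mitochondrial genes from -1.51 (SARS2) to 0.47 (VARS2).

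WARS1 (chr14:100333788-100376805, GENCODE 29 on GRCh38), the cytosolic tryptophanyl-tRNA synthetase, which is also known as an interferon-induced gene, rose most. It was at 146, 143 and 148 TPM in the scramble libraries and at 383, 396 and 394 TPM in the knockdown libraries. The 2 groups were far apart, and the change was 1.31 (SE 0.03, 2.48-fold, adjusted p = 1.03e-17, edgeR's quasi-likelihood test).

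SARS1 (chr1:109213918-109238169), the seryl enzyme, which also charges the selenocysteine tRNA with serine, was at 569, 526 and 553 TPM in scramble and at 1383, 1353 and 1408 TPM in knockdown libraries. Every knockdown library lay far above every scramble library, with a change of 1.19 (SE 0.03, 2.29-fold, adjusted p = 4.19e-17, edgeR's quasi-likelihood test). In the knockdown libraries it had the highest mean level of all 38.

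AARS1 (chr16:70252295-70289543), the alanyl enzyme, was at 279.6, 262 and 273 TPM in scramble and at 585, 582 and 583 TPM in knockdown libraries. The knockdown libraries were nearly equal and the groups did not overlap, with a change of 0.97 (SE 0.03, 1.95-fold, adjusted p = 6.68e-16, edgeR's quasi-likelihood test).

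NARS1 (chr18:57600656-57622213), the asparaginyl enzyme, was at 546, 546 and 565 TPM in scramble and at 934, 919 and 922 TPM in knockdown libraries. It rose by 0.61 (SE 0.03, 1.52-fold, adjusted p = 3.33e-13, edgeR's quasi-likelihood test) with no overlap, just past the 1.5-fold line, and fell short of that line at 0.49 with the GC trend removed.

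The other 8 cytosolic genes that rose did so by less than 1.5-fold. EPRS1, which carries the glutamyl and prolyl enzymes in 1 chain, rose by 0.47 (SE 0.03), from 289.6 ± 0.226 to 442 ± 4.53 TPM (SD, n = 3 each). MARS1 (methionyl) rose by 0.31, TARS1 (threonyl) and LARS1 (leucyl, also an intracellular leucine sensor) by 0.28 each, CARS1 (cysteinyl) by 0.21 and YARS1 (tyrosyl) by 0.20. HARS1 (histidyl) rose by 0.16, and FARSB, the beta subunit of the phenylalanyl enzyme, by 0.11. FARSB lost its call without shCRIP1 replicate 1 (adjusted p = 0.0679) and without shScramble replicate 3 (adjusted p = 0.0563, edgeR's quasi-likelihood test for both), and with the GC trend removed its change was -0.05. IARS1, the isoleucyl enzyme, did not pass at 0.02 (adjusted p = 0.593), and its sign changed to -0.11 with the GC trend removed.

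QARS1 (chr3:49095932-49105135), the glutaminyl enzyme of the complex, was the cytosolic gene that fell most and also the lowest in level. It was at 76.1, 71.9 and 75.9 TPM in scramble and at 51.6, 55.5 and 56.7 TPM in knockdown libraries. All knockdown values lay below all scramble values, with a fall of 0.59 on the log2 scale (SE 0.05, 1.5-fold lower, adjusted p = 4.43e-10, edgeR's quasi-likelihood test). It sits on the 1.5-fold line. Still with adjusted p under 0.05, it fell short of that line without shCRIP1 replicate 1 (-0.54), without shScramble replicate 1 (-0.57) and without shScramble replicate 3 (-0.58). It also fell short with upper-quartile scaling (-0.55), with a filter of 50 counts in 3 libraries (-0.58) and on the TPM scale (-0.44).

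FARSA, the alpha subunit of the phenylalanyl enzyme, was at 114, 105 and 106 TPM in scramble and at 93.7, 98.1 and 95.9 TPM in knockdown libraries. The groups lay close together without overlap, and FARSA fell by 0.31 (SE 0.05, adjusted p = 3.32e-06, edgeR's quasi-likelihood test). The 2 subunits form 1 enzyme, so FARSA and FARSB were fitted in opposite directions within it. VARS1 (valyl) fell by 0.28 and RARS1 (arginyl) by 0.30, and the TPM values of RARS1 overlapped between groups.

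Of the 2 genes that serve both compartments, KARS1, the lysyl enzyme, was at 187, 185 and 183 TPM in scramble and at 149.5, 153 and 149 TPM in knockdown libraries. It fell by 0.43 (SE 0.04, 1.34-fold lower, adjusted p = 1.19e-09, edgeR's quasi-likelihood test) with no overlap. GARS1, the glycyl enzyme and one of the most highly expressed of the 38, was called lower at -0.12 (SE 0.03, adjusted p = 0.0015, edgeR's quasi-likelihood test), but its TPM overlapped and its change was 0.02 on the TPM scale.

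**Figure D2:**
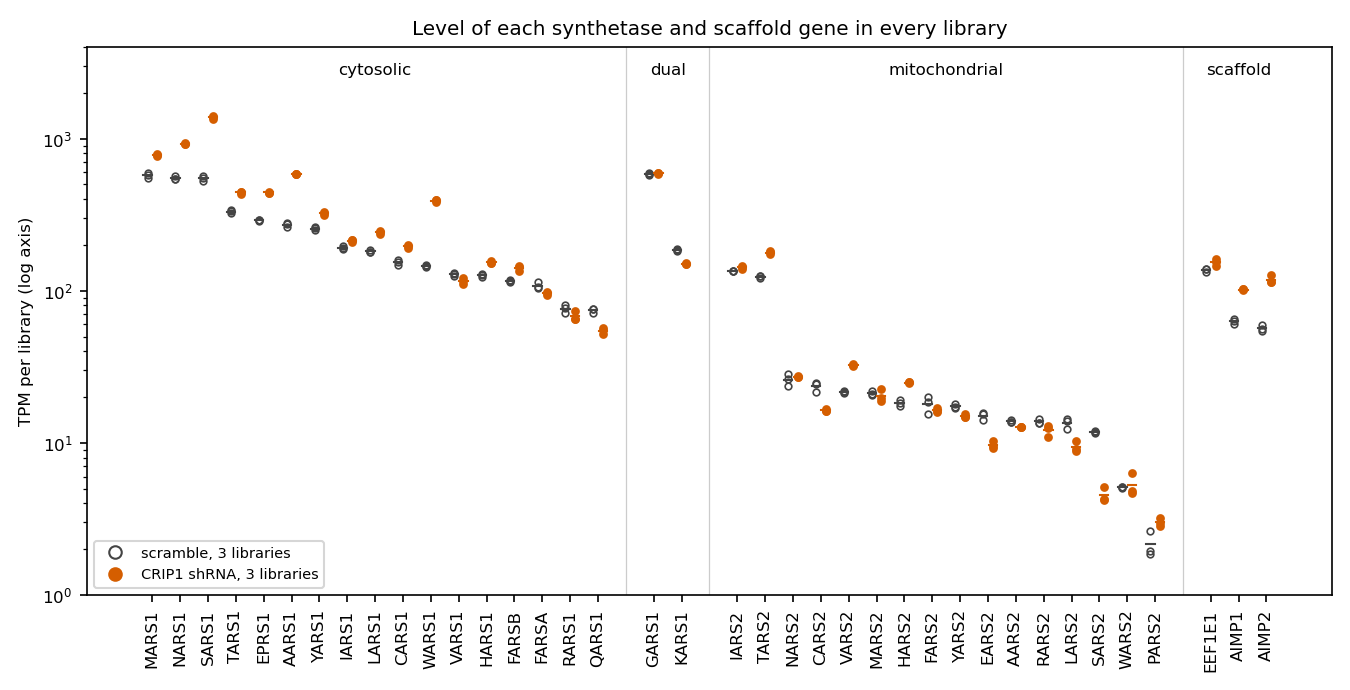
Level of each of the 38 genes in every library (vertical axis, TPM on a log axis), ordered within each compartment by the scramble mean, with short lines at group means. Cytosolic genes lie above the mitochondrial genes other than IARS2 and TARS2, and SARS1 stands highest in the knockdown libraries at a mean of 1381 TPM.

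ATF4 is known to bind an element of which 1 form is the 8 letters TGATGCAA (TTGCATCA on the other strand). Promoter sequence (RefSeq, GRCh38.p14, from 250 bases before to 50 after each start site) was matched for 33 of the 38 genes. This motif was found on either strand in 6 of the 14 cytosolic genes matched and in 0 of the 14 mitochondrial, 0 of the 2 dual and 0 of the 3 scaffold genes. Of all 27305 genes with a promoter sequence, 295 (1.08%) hold it, and of all 35116 promoters, 304 (0.87%). The 6 windows are printed to show the shared letters, in capitals, with 11 bases on each side, 5′ to 3′ on the gene's strand.
AARS1 (chr16:70289675-70289704, minus strand): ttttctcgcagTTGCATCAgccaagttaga
CARS1 (chr11:3057407-3057436, minus strand): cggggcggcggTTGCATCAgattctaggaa
IARS1 (chr9:92293692-92293721, minus strand): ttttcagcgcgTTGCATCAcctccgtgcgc
MARS1 (chr12:57488053-57488082, plus strand): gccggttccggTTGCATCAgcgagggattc
NARS1 (chr18:57621804-57621833, minus strand): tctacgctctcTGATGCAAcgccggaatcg
TARS1 (chr5:33440956-33440985, plus strand): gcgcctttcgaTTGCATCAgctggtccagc

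Of these 6 genes, 5 rose, by 0.21 (CARS1) to 0.97 (AARS1), and IARS1 did not pass. Of all 17 cytosolic genes 12 rose, and of all genes tested 39.4% rose. Among the matched cytosolic genes without the motif, EPRS1, FARSB, HARS1, SARS1 and WARS1 rose, and FARSA, QARS1 and RARS1 fell. A link between the motif and the changes was not tested. The motif lies across or within 22 bases of the start site in 5 of the 6 genes, and 187 to 180 bases before it in AARS1. With any base at the sixth place (TGATGNAA, which includes the first motif), 1217 genes (4.46%) and 1270 promoters (3.62%) match. GARS1 and YARS2, neither of which rose, are then added. WARS1 and SARS1, the genes that rose most, hold neither form in this window. The 250 bases before the SARS1 start site are printed for comparison.
SARS1 (chr1:109213643-109213892, plus strand): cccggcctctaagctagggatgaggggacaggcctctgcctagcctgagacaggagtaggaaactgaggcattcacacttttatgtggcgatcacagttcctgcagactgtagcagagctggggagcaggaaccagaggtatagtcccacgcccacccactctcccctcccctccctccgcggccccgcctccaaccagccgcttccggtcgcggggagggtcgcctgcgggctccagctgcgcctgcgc

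Mitochondrial synthetases were scarce beside the cytosolic ones. In scramble libraries 14 of the 16 were under 30 TPM on average, from PARS2 at 2.16 TPM, and IARS2 (134 TPM) and TARS2 (123 TPM) stood apart from them. The median gene was at 17.7 TPM in scramble and 15.7 TPM in knockdown libraries, against 182 and 242 TPM for the cytosolic genes.

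SARS2 (chr19:38915266-38930896), the mitochondrial seryl enzyme, fell most of the 38. It was at 11.7, 12.0 and 11.6 TPM in scramble and at 5.10, 4.28 and 4.24 TPM in knockdown libraries. Every knockdown library was under every scramble library by a wide margin, and the change was -1.51 (SE 0.11, 2.84-fold lower, adjusted p = 9.48e-11, edgeR's quasi-likelihood test). Its exons share 46.2% of their bases with AC011455.2 on the same strand, so reads from these 2 annotations may not be told apart.

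EARS2 (chr16:23522014-23557731), the glutamyl enzyme, was at 15.5, 14.04 and 15.8 TPM in scramble and at 10.3, 9.20 and 9.59 TPM in knockdown libraries. It fell by 0.76 (SE 0.06, 1.70-fold lower, adjusted p = 7.82e-10, edgeR's quasi-likelihood test), and no knockdown value reached the scramble values.

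CARS2 (chr13:110641412-110713603), the cysteinyl enzyme, which is also known to form cysteine persulfides, was at 24.3, 24.9 and 21.6 TPM in scramble and at 16.6, 16.2 and 16.2 TPM in knockdown libraries. The knockdown libraries were tight and lower, with a fall of 0.65 (SE 0.08, 1.57-fold lower, adjusted p = 3.29e-07, edgeR's quasi-likelihood test). On the TPM scale the fall was 0.50, short of 1.5-fold.

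LARS2 (chr3:45388506-45549421), the leucyl enzyme, was at 14.4, 13.8 and 12.3 TPM in scramble and at 8.81, 10.3 and 9.05 TPM in knockdown libraries. It fell by 0.64 (SE 0.07, 1.55-fold lower, adjusted p = 3.56e-08, edgeR's quasi-likelihood test) without overlap. On the TPM scale it fell by 0.48, short of 1.5-fold.

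The other 5 mitochondrial genes that fell changed by less: YARS2 by 0.35, RARS2 by 0.32, FARS2 by 0.25, AARS2 by 0.23 and MARS2 by 0.19. TPM overlapped between groups for FARS2 and MARS2. FARS2 (adjusted p = 0.0203, edgeR's quasi-likelihood test) lost its call without shCRIP1 replicate 3, without shScramble replicate 1 and without shScramble replicate 3. WARS2, IARS2 and NARS2 did not pass, and each of these 3 was above 0 on the TPM scale and below 0 with TMM scaling.

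Of the 16, 3 rose. VARS2, the valyl enzyme, was at 21.8, 21.1 and 21.6 TPM in scramble and at 32.5, 32.1 and 32.8 TPM in knockdown libraries. Both groups were tight and apart, and it rose by 0.47 (SE 0.05, 1.38-fold, adjusted p = 2e-08, edgeR's quasi-likelihood test). Of its exon bases 22.0% are shared with GTF2H4 on the same strand, and GTF2H4 changed by -0.35.

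TARS2, the threonyl enzyme, which is also a known partner of mTORC1 signalling, was at 124, 121 and 125 TPM in scramble and at 179, 181 and 174 TPM in knockdown libraries. It rose by 0.41 (SE 0.04, 1.33-fold, adjusted p = 2.11e-09, edgeR's quasi-likelihood test) with no overlap. HARS2 rose by 0.31 (SE 0.06), from 18.3 ± 0.91 to 24.9 ± 0.251 TPM. PARS2, the prolyl enzyme and the lowest of the 38, was at 2.65, 1.86 and 1.96 TPM in scramble and at 2.82, 2.97 and 3.21 TPM in knockdown libraries. These groups did not overlap, but with 39 to 65 counts per library PARS2 did not pass (0.34, SE 0.17, adjusted p = 0.0773), and it passed without shScramble replicate 1 (adjusted p = 0.0187, edgeR's quasi-likelihood test for both).

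In all, 17 pairs could be made of a cytosolic and a mitochondrial enzyme for the same amino acid, with EPRS1 paired with both EARS2 and PARS2, and FARS2 with both FARSA and FARSB. The fitted change was higher for the cytosolic member in 13 pairs and lower in 4. In 8 pairs the cytosolic gene rose and the mitochondrial gene fell, in 2 both rose, in 2 both fell, and in 1 (VARS1 and VARS2) the cytosolic gene fell and the mitochondrial gene rose. Pairs that share a gene are not independent of each other.

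**Figure D3:**
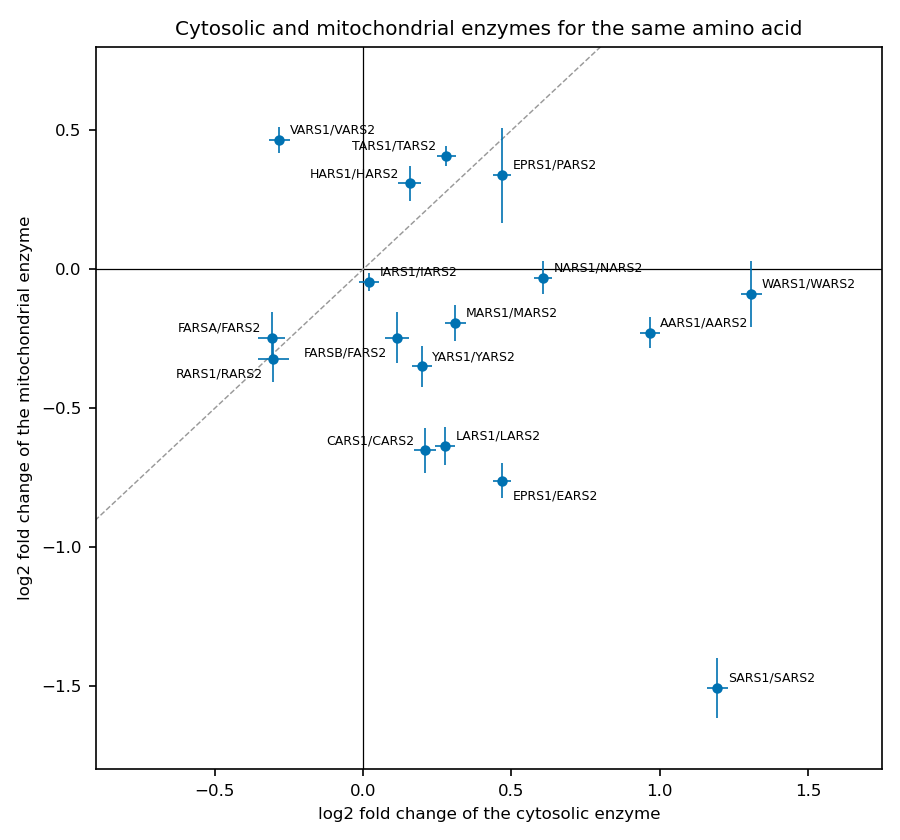
Fitted log2 fold change of the cytosolic enzyme (horizontal axis) against that of the mitochondrial enzyme for the same amino acid (vertical axis) in 17 pairs, with bars of 1 SE and a dashed line of equal change. SARS1/SARS2 lies farthest from the line, and VARS1/VARS2 is the pair left of and above 0.

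Serine showed the widest split. The ratio of SARS1 to SARS2 TPM was 48.6, 43.9 and 47.6 in scramble and 271, 316 and 332 in knockdown libraries, and the log2 changes differed by 2.70. For tryptophan the ratio of WARS1 to WARS2 went from a mean of 28.5 ± 0.799 to 75.6 ± 11.6 (SD, n = 3 each), for glutamate that of EPRS1 to EARS2 from 19.2 ± 1.22 to 45.7 ± 2.53, and for alanine that of AARS1 to AARS2 from 19.5 ± 0.618 to 45.9 ± 0.359. The ratio was higher in every knockdown library than in every scramble library for 11 pairs. It was lower throughout for 3: VARS1 to VARS2 (5.94 ± 0.0651 to 3.57 ± 0.128), HARS1 to HARS2 and TARS1 to TARS2. It overlapped for RARS1 to RARS2, FARSA to FARS2 and EPRS1 to PARS2. Ratios of other gene pairs were not counted for comparison, and of single genes tested 78.5% did not overlap in TPM.

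Summed over genes, the cytosolic enzymes were at 4180, 4032 and 4168 TPM in scramble and at 6557, 6481 and 6621 TPM in knockdown libraries, and the mitochondrial enzymes at 487, 471 and 480 and at 532, 529 and 531 TPM. The sums were thus 1.59 and 1.11 times the scramble level. They are on the TPM scale, where the median log2 change of all genes was itself 0.12. The mitochondrial sum was higher in TPM although most of its genes that passed the test fell, and IARS2 and TARS2 hold more of it than the other 14 genes together. TARS2 went from a mean of 123 to 178 TPM, and IARS2, which did not pass, from 134 to 143 TPM. The ratio of the sums was 8.61 ± 0.0650 in scramble and 12.4 ± 0.115 in knockdown libraries (SD, n = 3 each, exact two-sided permutation p = 0.1, the smallest that 3 against 3 can give). SARS1, MARS1 and NARS1 alone went from 1676 ± 46.7 to 3090 ± 40.5 TPM. The 38 genes took 0.803% to 0.828% of all estimated counts in scramble and 1.13% to 1.14% in knockdown libraries.

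Library by library, the 2 groups did not overlap in TPM for 32 of the 38 genes, 21 with the knockdown libraries higher and 11 lower. Of all genes tested, 78.5% did not overlap, 48.2% with the knockdown libraries higher and 30.3% lower. By compartment the higher and lower counts were 13 and 3 for cytosolic genes and 5 and 7 for mitochondrial genes.

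The scaffold genes came next to the cytosolic enzymes. AIMP2 (chr7:6009245-6023834), which holds the complex together, was at 59.6, 55.9 and 54.7 TPM in scramble and at 113, 127 and 114 TPM in knockdown libraries. It rose by 0.94 (SE 0.06, 1.92-fold, adjusted p = 2e-11, edgeR's quasi-likelihood test), with every knockdown library far above the scramble libraries. Of its exon bases 28.9% overlap EIF2AK1 on the opposite strand, and EIF2AK1 changed by 0.03 (adjusted p = 0.364, edgeR's quasi-likelihood test).

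AIMP1, which also gives rise to a secreted cytokine, was at 60.6, 62.8 and 65.3 TPM in scramble and at 102, 100.4 and 102 TPM in knockdown libraries. It rose by 0.43 (SE 0.04, 1.35-fold, adjusted p = 1.61e-09, edgeR's quasi-likelihood test) with no overlap, and by 0.18 with the GC trend removed. EEF1E1, also called AIMP3, was at 138, 138 and 133 TPM in scramble and at 153, 146.5 and 163 TPM in knockdown libraries. EEF1E1 did not pass at 0.10 (SE 0.05, adjusted p = 0.118), passed without shCRIP1 replicate 1 (adjusted p = 0.0482, edgeR's quasi-likelihood test for both), and its change was -0.15 with the GC trend removed.

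The genes of the complex did not all change in the same direction. Of the 10 described here, 5 rose (AIMP1, AIMP2, EPRS1, LARS1 and MARS1), 3 fell (KARS1, QARS1 and RARS1) and 2 did not pass (IARS1 and EEF1E1). The shares were 50% higher and 30% lower, beside 39.4% and 38.1% of all genes tested. The median of the 10 was 0.19, and with the GC trend removed, 5 rose, 5 fell and the median was -0.0024. On the TPM scale 7 rose and 3 fell, with a median of 0.29.

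Synthetases fall into 2 structural classes. The mitochondrial genes, and EPRS1, which joins an enzyme of each class, are left out here. Of the 9 cytosolic class I genes 5 rose and 3 fell (median 0.20). Of the 9 class II genes, cytosolic and dual, 6 rose and 3 fell (median 0.16). Of all genes tested, 39.4% rose and 38.1% fell.

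ATF4 RNA was at 933, 914 and 933 TPM in scramble and at 1232, 1325 and 1196 TPM in knockdown libraries. It rose by 0.30 (SE 0.04, 1.23-fold, adjusted p = 6.82e-07, edgeR's quasi-likelihood test) with no overlap. ATF4 is controlled mainly at translation, which RNA levels do not measure. Of 13 synthetases listed as known ATF4 targets, 10 rose (76.9%), 2 fell (15.4%) and 1 did not pass, with a median of 0.28. The 2 were VARS1 and GARS1, and GARS1 did not fall on the TPM scale. Of all genes tested, 39.4% rose and 38.1% fell. On the TPM scale 11 of the 13 rose and 1 fell, and with the GC trend removed 10 rose and 3 fell. The list was chosen with earlier results of these data known. Of the 6 cytosolic and dual synthetases outside that list, 2 rose (FARSB and HARS1) and 4 fell (FARSA, KARS1, QARS1 and RARS1), with a median of -0.31.

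Of 29 listed ATF4 targets that are not synthetases, 21 rose (72.4%), 7 fell (24.1%) and 1 did not pass, with a median of 0.46. Of all genes tested, 39.4% rose and 38.1% fell. By 1.5-fold 13 of the 29 were higher (44.8%), beside 18.2% of all genes tested. ALDH1L2, a mitochondrial folate enzyme, rose by 1.76, from 25.9 ± 1.19 to 94.0 ± 0.478 TPM. DDIT3 (CHOP), a stress transcription factor, rose by 1.72, from 198 ± 2.7 to 742 ± 25.0 TPM. TRIB3, a pseudokinase that restrains ATF4, rose by 1.68, from 85.5 ± 2.89 to 301 ± 24.3 TPM. ASNS, the asparagine synthetase, rose by 1.18, from 222 ± 6.65 to 551 ± 21.4 TPM. The adjusted p of these 4 ran from 5.39e-19 (ALDH1L2) to 1.16e-16 (ASNS, edgeR's quasi-likelihood test). NUPR1, named because it alone fell by over 1.5-fold, changed by -1.27 at about 1 TPM. SLC7A5, an amino acid transporter gene named for the next largest fall, changed by -0.55, from 273 ± 5.84 to 205 ± 8.11 TPM. On the TPM scale 22 of the list rose and 5 fell, and once the GC trend was taken out 19 rose and 7 fell. The erythroid and epithelial markers given above were higher in the same libraries, and their part in these counts was not tested.

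**Figure D4:**
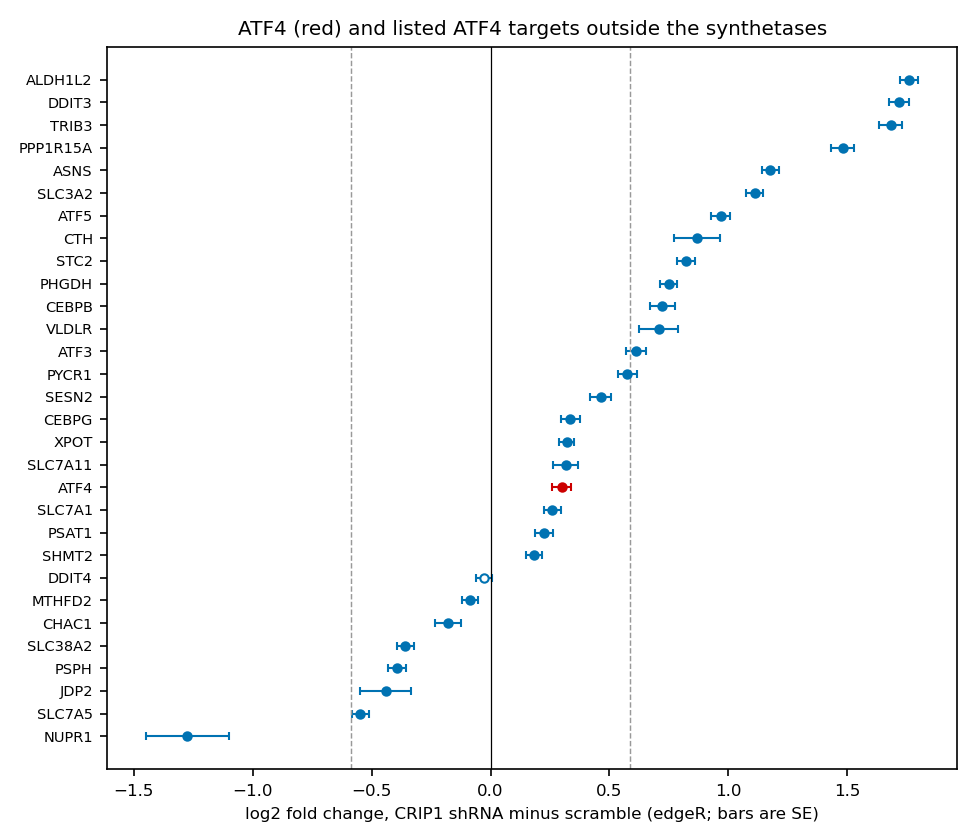
Fitted log2 fold change of ATF4 (red) and 29 known ATF4 targets outside the synthetases (horizontal axis; bars are SE, dashed lines mark 1.5-fold, the open point did not pass). ATF4 lies at 0.30, ALDH1L2 highest at 1.76 and NUPR1 lowest at -1.27.

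MARS1 and DDIT3 lie tail to tail: 355 exon bases of MARS1 (5.1%) overlap DDIT3 on the opposite strand, and 519 overlap ARHGAP9. DDIT3 rose by 1.72 and ARHGAP9 by 1.41, against 0.31 for MARS1, and without strand the reads of the overlap cannot be told apart. In all, 14 of the 38 genes overlap exons of another protein-coding gene, 12 of them on the opposite strand.

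The control of ATF4 was covered by a list of 17 genes: ATF4 itself, the eIF2alpha kinases, eIF2 and eIF2B subunits and regulators. Of these 17, 5 rose (29.4%, ATF4 among them), 3 fell (17.6%) and 9 did not pass, with a median of 0.06. Of all genes tested, 39.4% rose and 38.1% fell. On the TPM scale 13 of the 17 rose and 3 fell, and with the GC trend removed 4 rose and 7 fell. PPP1R15A (GADD34), which directs eIF2alpha dephosphorylation and is also in the list of ATF4 targets, rose by 1.48, from 98.7 ± 5.05 to 302 ± 19.4 TPM. GCN1, which couples uncharged tRNA and stalled ribosomes to the kinase GCN2, fell by 1.07, from 94.4 ± 3.04 to 49.5 ± 0.271 TPM. EIF2B3, a subunit of the eIF2 exchange factor, fell by 0.59, from 42.3 ± 2.64 to 29.2 ± 1.03 TPM. All 3 passed edgeR's quasi-likelihood test, with adjusted p from 2.54e-16 (PPP1R15A) to 2.58e-08 (EIF2B3).

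Among 15 companions of aminoacylation (tRNA export, trimming, amidation and peptidyl-tRNA hydrolysis), 5 rose, 5 fell and 5 did not pass, with a median of -0.07. That is 33.3% in each direction, beside 39.4% higher and 38.1% lower of all genes tested. On the TPM scale 6 rose and 4 fell (median 0.06), and without the GC trend 4 rose and 7 fell (median -0.25). PTRHD1, which has a peptidyl-tRNA hydrolase fold, fell by 0.61, and TARS3, a threonyl enzyme like TARS1, fell by 0.60, from 6.93 ± 0.171 to 4.93 ± 0.244 TPM.

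Of 20 mitochondrial translation factors and mitochondrial tRNA modifying enzymes, which act beside the mitochondrial synthetases, 4 rose, 8 fell and 8 did not pass (median -0.11). The shares were 20% higher and 40% lower, beside 39.4% and 38.1% of all genes tested. On the TPM scale 6 rose and 6 fell, and with the GC trend removed 3 rose and 14 fell. TUFM, the elongation factor that brings charged tRNA to the mitochondrial ribosome, was at 463, 467 and 468 TPM in scramble and at 258, 275 and 269.7 TPM in knockdown libraries. It fell by 0.94 (SE 0.04, 1.91-fold lower, adjusted p = 2.52e-15, edgeR's quasi-likelihood test) with no overlap. MTERF3, a regulator of mitochondrial transcription and ribosome assembly, rose by 0.66, from 35.2 ± 2.47 to 61.1 ± 2.13 TPM. With the GC trend removed the highest change of this list was 0.49, short of 1.5-fold.

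Several of these genes share a short stretch of DNA with a neighbour that is read in the other direction. Within 1000 bases, 10 of the 38 have such a neighbour, in 9 pairs. Both genes passed the test in all 9 pairs, where 77.6% of all genes tested passed, a share of single genes and not of pairs. In 8 pairs both changed in the same direction, and other neighbouring pairs of the genome were not counted for comparison. The exons of the 2 genes overlap on opposite strands in 6 of these 8 pairs (not in AIMP2 and FARS2 with their neighbours), so reads of 1 gene may have been counted for the other. The exception was RARS2 at -0.32 beside ORC3 at 0.39, whose exons do not overlap. The stretches between the start sites are printed for 3 pairs: the gene that rose most, the gene that fell most, and the pair of which both are synthetases.
WARS1 (chr14:100376328-100376484, minus strand, shared with WDR25): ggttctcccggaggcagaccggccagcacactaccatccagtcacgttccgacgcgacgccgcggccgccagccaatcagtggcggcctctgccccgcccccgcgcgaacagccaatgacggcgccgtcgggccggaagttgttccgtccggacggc
SARS2 (chr19:38930764-38930943, minus strand, shared with MRPS12): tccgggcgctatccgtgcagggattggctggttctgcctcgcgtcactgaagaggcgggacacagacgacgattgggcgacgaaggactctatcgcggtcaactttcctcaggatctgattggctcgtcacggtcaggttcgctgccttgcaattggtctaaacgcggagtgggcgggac
HARS2 (chr5:140691371-140691454, plus strand, shared with HARS1): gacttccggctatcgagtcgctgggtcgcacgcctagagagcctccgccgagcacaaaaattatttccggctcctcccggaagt

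WARS1 and WDR25 moved together, at 1.31 (SE 0.03) and 1.09 (SE 0.11), with WDR25 at 7.45 ± 1.14 TPM in scramble and 17.7 ± 1.82 TPM in knockdown libraries. SARS2 and MRPS12, a mitochondrial ribosomal protein gene, did not move by like amounts: SARS2 fell by 1.51 (SE 0.11) and MRPS12 by 0.19 (SE 0.07), from 94.2 ± 2.42 to 91.0 ± 11.8 TPM. HARS1 and HARS2 rose by 0.16 and 0.31. The exons of WARS1 and WDR25 overlap by 287 bases, those of SARS2 and MRPS12 by 349 and those of HARS1 and HARS2 by 437 (11.7% of HARS2), so part of these values may come from the other gene.

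**Figure D5:**
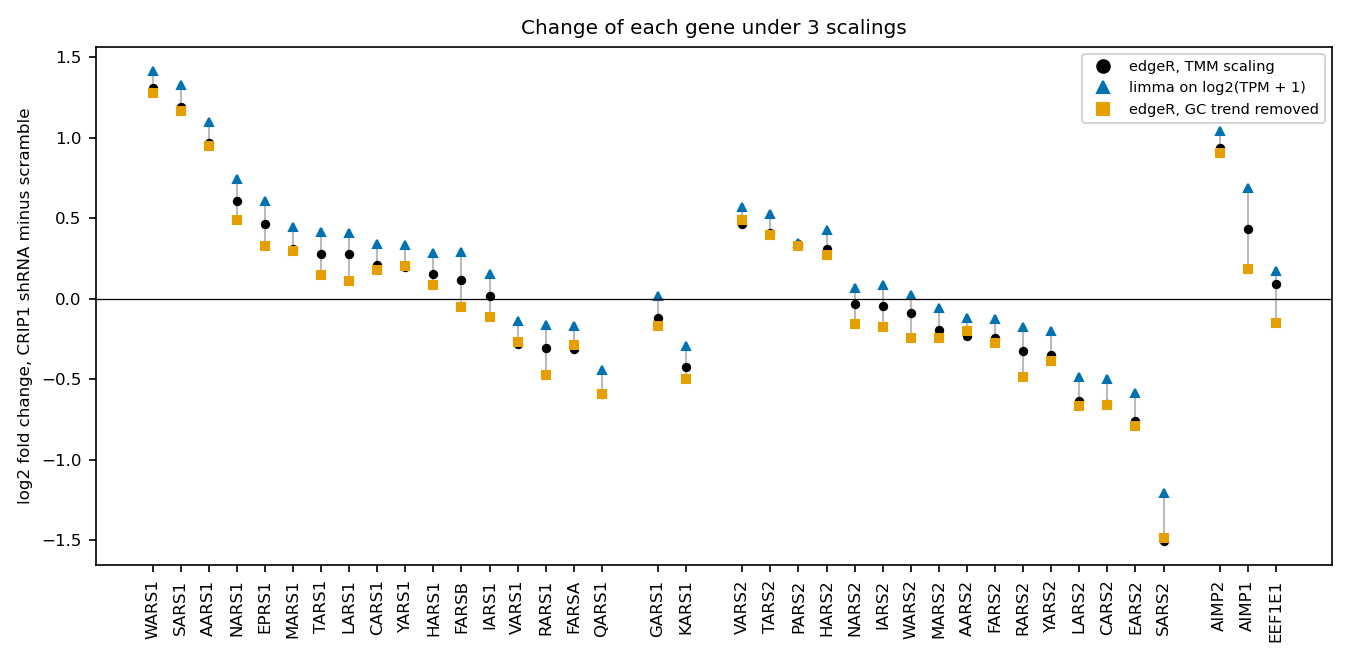
Log2 fold change of each gene (vertical axis) under TMM-scaled edgeR, limma on log2(TPM + 1) and edgeR with the GC trend removed, joined by a grey line. The genes past 1.5-fold, such as WARS1 at 1.31 and SARS2 at -1.51, keep their sign in all 3, whereas IARS1, FARSB, GARS1, IARS2, NARS2, WARS2 and EEF1E1 lie on both sides of 0.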

How the data were processed

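Total RNA was made into libraries with a SMARTER mRNA kit, per the labels' protocols. The deposited tables hold, for each library, expected counts estimated per gene together with FPKM and TPM values that the authors computed, per the file headers. Per the submitters' processing notes, RSEM 1.2.8, HISAT2 2.1.0, Bowtie2 2.2.5 and the build GRCh38.p13 were used, with no role stated for each. TPM and FPKM are scaled for gene length. No source used here states whether counting used strand.

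The deposited expected counts were rounded to whole numbers, which changed 12.6% of the values. Genes were kept with edgeR's filterByExpr (minimum count 10), scaled by TMM and tested with the quasi-likelihood test of edgeR 4.0.16 in R 4.3.3. P-values were adjusted by Benjamini-Hochberg over all 12612 genes tested. SE is the size of the log2 fold change over the root of the F statistic. The code was tested on simulated counts. Total expected counts ran from 16971454 to 18005318 per library. The members, the other gene lists and the tests were chosen with earlier results of these data known.

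Alternatives were DESeq2 1.42.0 (its size factors, and its Wald test), upper-quartile scaling, no filter, a filter of 50 counts in 3 libraries, limma 3.58.1 on log2(TPM + 1), log2(TPM + 0.1) and log2(FPKM + 1), removal of a GC trend (loess, span 0.5, GC of the longest GENCODE 29 transcript, known for 98.6% of the genes in the table), a test against a 1.2-fold change, a 2-fold threshold, a replicate block, and leaving out each library. Of the deviations of same-numbered libraries from their group means, no correlation exceeded 0.1, so the numbers were not treated as pairs.

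Every member could be named. Every library's value is given for members past adjusted p 0.05, 1.5-fold and with no overlap in TPM, and for the 3 largest and 3 smallest log2 fold changes among cytosolic (with dual), mitochondrial and scaffold genes. Outside the members, CRIP1, ATF4 and, in each other list, the 4 genes of smallest adjusted p past 1.5-fold were named. NUPR1 and SLC7A5 were named as the largest falls of their list. Some genes are not reported here.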

Additional observations from a re-analysis of the deposited data

How the results depend on the processing

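All 10 genes past 1.5-fold kept their direction and their call at adjusted p under 0.05 in all 17 alternatives, and 31 of the 38 kept their sign in every alternative. Both direction and call held in every alternative, the test against 1.2-fold included, for 15 of the 38. Of 646 gene values, 583 kept direction and call, 32 lost the call, 15 gained one and 16 changed sign. Where a value moved, the cause was not tested unless the alternative itself shows it. The cytosolic median log2 fold change was 0.25 with upper-quartile scaling, 0.34 on log2(TPM + 1), 0.34 on log2(TPM + 0.1), 0.29 on log2(FPKM + 1) and 0.15 with the GC trend removed. The mitochondrial median was -0.089, -0.095 and -0.13 on log2(TPM + 1), log2(TPM + 0.1) and log2(FPKM + 1). On each of these 3 scales 2 genes (SARS2 and EARS2) were lower by 1.5-fold, and on log2(TPM + 0.1) 8 were higher. A test against 1.2-fold called 9 higher and 6 lower, and a 2-fold threshold left 2 higher and 1 lower. FARSB (-0.052), IARS1 (-0.11) and EEF1E1 (-0.15) changed sign with the GC trend removed. On log2(TPM + 1), log2(TPM + 0.1) and log2(FPKM + 1) IARS2 was at 0.0889, 0.0894 and 0.042, and NARS2 at 0.065, 0.067 and 0.019. On the 2 TPM scales GARS1 was at 0.0153 and 0.0153 and WARS2 at 0.026 and 0.029. NARS2 was at 0.012 with upper-quartile scaling.

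Leaving out 1 library at a time gave 16 to 18 genes higher, 14 to 15 lower, 5 higher by 1.5-fold, 4 to 5 lower by 1.5-fold (QARS1 crossed that line, as did NARS1 with the GC trend removed), a cytosolic median of 0.20 to 0.23 and a mitochondrial median of -0.23 to -0.17. IARS1 ranged from -0.0015 (without shScramble replicate 2) to 0.041, and NARS2 from -0.066 to 0.0023 (without shCRIP1 replicate 1). The labels number the replicates, but the numbers did not pair the libraries (correlations 0.05, -0.01 and -0.01), and with the replicate block 17 genes rose and 15 fell, with medians of 0.21 and -0.21. Genes under about 10 TPM, such as PARS2 and WARS2, had the largest SE, which limits what these libraries can show for them.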
